A study of Saccharomyces pastorianus Weihenstephan 34/70 with 7 samples.

Results

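The genes described here are the 39 S. cerevisiae genes of the tricarboxylic acid (TCA) cycle, the glyoxylate shunt, gluconeogenesis with its pyruvate carboxylases, the use of ethanol, acetate and lactate, the carnitine shuttle and their main regulators. They were taken by gene symbol from the array annotation, which held all 39, each with 1 probe set, among the 5635 S. cerevisiae genes that were tested. The brewer's yeast was Weihenstephan 34/70, an industrial lager strain of S. pastorianus that flocculates and ferments at the bottom, and all cultures were 21 °Plato high gravity worts sampled in the stationary phase. Of the 7 arrays, 1 came from maltose wort with Flavourzyme (labelled 21P_Maltose_Enzyme), 2 from maltose wort without it (21P_Maltose_Control, the maltose control), 2 from glucose wort with Flavourzyme (21P_Glucose_Enzyme) and 2 from glucose wort without it (21P_Glucose_Control, the glucose control). Flavourzyme is a fungal mixture of endo- and exopeptidases that frees amino acids from wort protein, and the worts had been brought to high gravity with a maltose or a glucose syrup, so that each wort held malt sugars beside its syrup. The comparisons ask whether the syrup, the peptidase or their combination went with a different level of these transcripts.

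The TCA cycle oxidizes acetyl-CoA in the mitochondria and supplies 2-oxoglutarate and oxaloacetate for amino acid synthesis, also when yeast ferments. The glyoxylate shunt bypasses the decarboxylating steps of the cycle, so that acetate or ethanol can be turned into malate, and gluconeogenesis then builds hexose phosphates through phosphoenolpyruvate carboxykinase (PCK1) and fructose-1,6-bisphosphatase (FBP1). In S. cerevisiae, glucose represses much of this program through the repressor Mig1, and Cat8, Sip4 and Adr1 activate it once glucose is used up, while the Rtg proteins activate the first steps of the cycle and the peroxisomal citrate synthase CIT2 when mitochondria are impaired or glutamate is scarce.

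Some features of the whole series bear on every value below. The study states that sampling times were not the same for the worts, nor for cultures given Flavourzyme and those without, so neither effect can be told apart from one of sampling time. Lager yeast is a hybrid that carries a second set of genes from a related species, and the share of each set in a signal of these S. cerevisiae probe sets was not measured. The duplicates of glucose wort with Flavourzyme, of the maltose control and of the glucose control correlated at 0.988, 0.997 and 0.928 over all genes, and the members differed between duplicates by a median of 0.168, 0.0669 and 0.544 on the log2 scale. The study ran each condition in duplicate fermentations and also took RNA samples in duplicate, and the sources do not tie an array to a fermentation, so p-values measure only the spread between these samples, which may be technical. Ribosomal RNA probe sets had mean log2 signals of 8.70 to 9.61 on the 3 maltose arrays and 11.2 to 13.2 on the 4 glucose arrays, and the part of this difference in the wort comparisons was not tested. The arrays had been scaled to one distribution of signals, so a change in the total RNA of a cell cannot be seen. All 39 members had a mean signal over the level of background (4.96 on the log2 scale, which 95% of the S. pombe probe sets did not exceed), and only the carrier gene SFC1 lay below it on any array.

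Averaged over both Flavourzyme states (the wort effect, maltose minus glucose), JEN1, PCK1, YAT1, PYC1, CIT2, CAT8 and FUM1 fell in maltose wort and SIP4 rose. These 8 passed limma's moderated test at a Benjamini-Hochberg adjusted p under 0.05 over all genes together with an absolute log2 difference over 1.301. Thus 8 of 39 members were called, against 8.8% of all genes tested, with 7 lower (3.57% of all genes) and 1 higher (5.24% of all genes). The fold threshold follows the study's methods, where its meaning is uncertain. At the adjusted p alone, 18 members were lower and 1 was higher, against 11.3% and 23% of all genes. The median log2 difference was -0.48 over the members and 0.26 over all genes tested. The maltose arrays all lay below the glucose arrays for 19 of 39 members (14.2% of all genes) and all above them for 3 (26.9% of all genes), namely MDH1, ACS2 and RTG3.

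**Figure D1:**
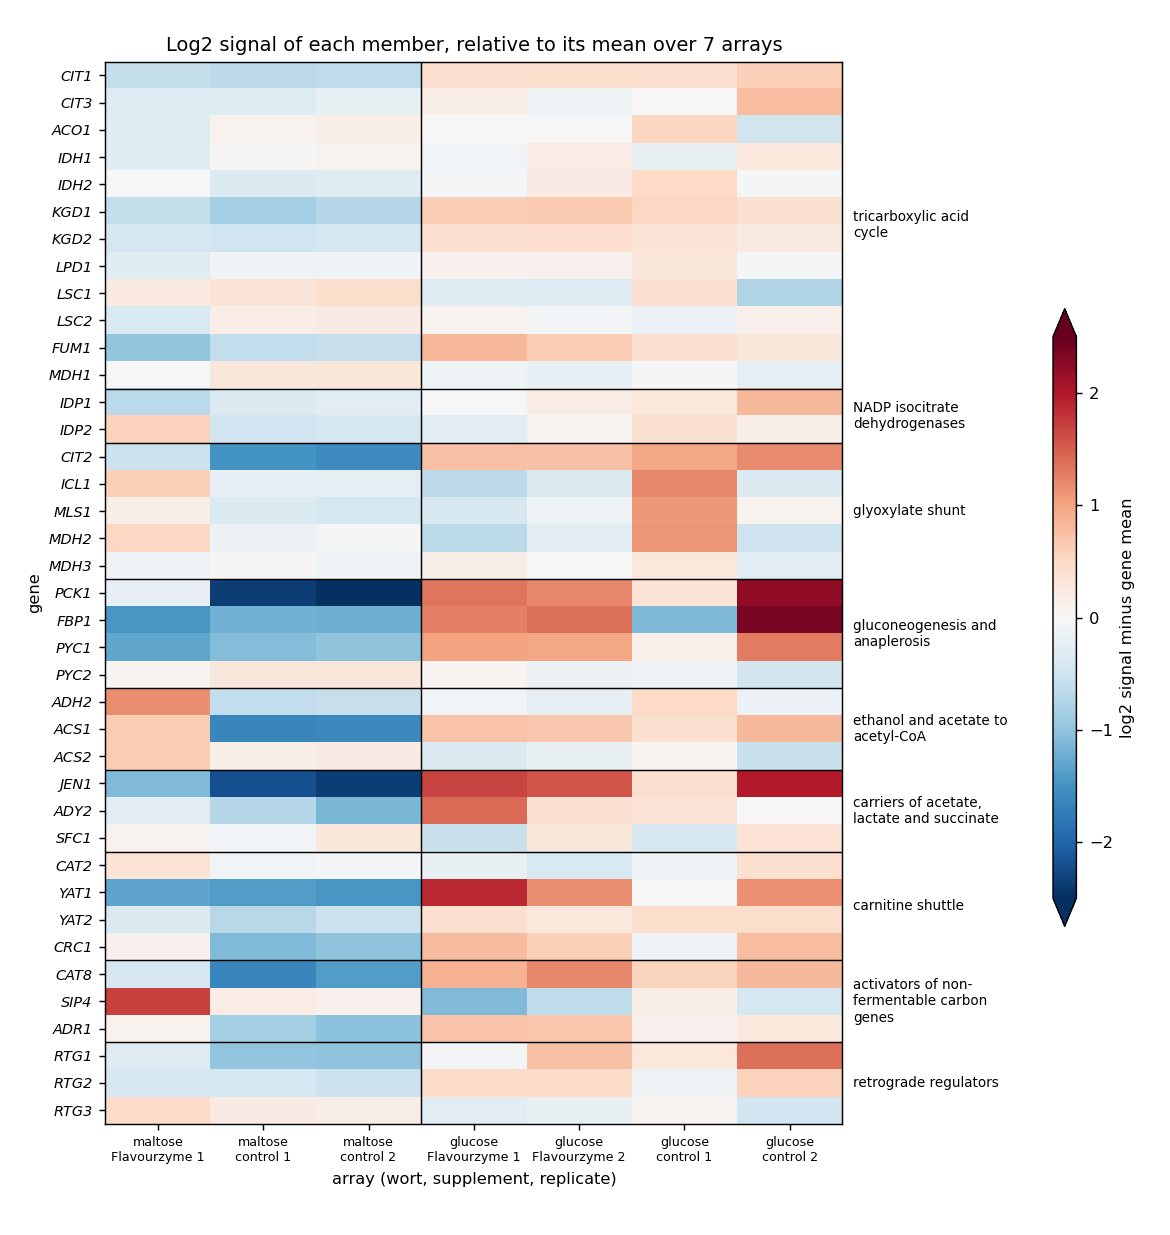
Heat map of the log2 signal of the 39 members (rows, grouped by pathway) on the 7 arrays (columns), each gene centred on its mean over the arrays. The 3 maltose columns are mostly blue (lower), most deeply in the 2 maltose controls for PCK1, JEN1, CIT2, ACS1 and CAT8, while SIP4 is reddest on the maltose Flavourzyme array.

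Without Flavourzyme, 16 of 39 members fell in maltose wort and none rose at the adjusted p, which 28.6% of all genes passed (9.81% lower, 18.7% higher). With Flavourzyme, FUM1 fell and SIP4 rose in maltose wort, that is 2 of 39 members, while 2.91% of all genes passed (1.1% lower, 1.81% higher). That comparison sets 1 array against 2, and 17 members (43.6%) had an unadjusted p under 0.05 in it, against 30.8% of all genes. Both calls were lost without either maltose control, without either glucose Flavourzyme array, without moderation and with the replicate block, while the values left after removing an array lay between -1.82 and -1.62 for FUM1 and between 2.34 and 2.81 for SIP4. Of the 16 calls without Flavourzyme, most were lost when 1 maltose control or 1 glucose Flavourzyme array was left out, as were most calls over all genes. Whether a wort difference changed with Flavourzyme was tested by the interaction (how far the Flavourzyme difference in maltose exceeded that in glucose), which no member passed (0 of 39 by limma and 0 by the unmoderated 2-way analysis, 0.0355% of all genes). At an unadjusted p under 0.05 there were 7 members (17.9%), against 19.1% of all genes. Of these members 6 had positive values and 1 a negative value, while of all 5635 genes 525 were positive and 551 negative. Most calls for the wort effect were also lost when 1 maltose control or 1 glucose Flavourzyme array was left out, as were most calls over all genes. With any array left out, none of the 8 called wort effects changed sign. They lay between -2.61 and -1.89 for CIT2, -3.50 and -2.70 for JEN1, and 0.27 and 1.57 for SIP4. Without the maltose Flavourzyme array the wort effect is the maltose control minus the glucose control, and the ranges below include that difference. The unmoderated 2-way analysis of variance of the study's methods called 3, namely CIT2, FUM1 and CAT8.

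**Figure D2:**
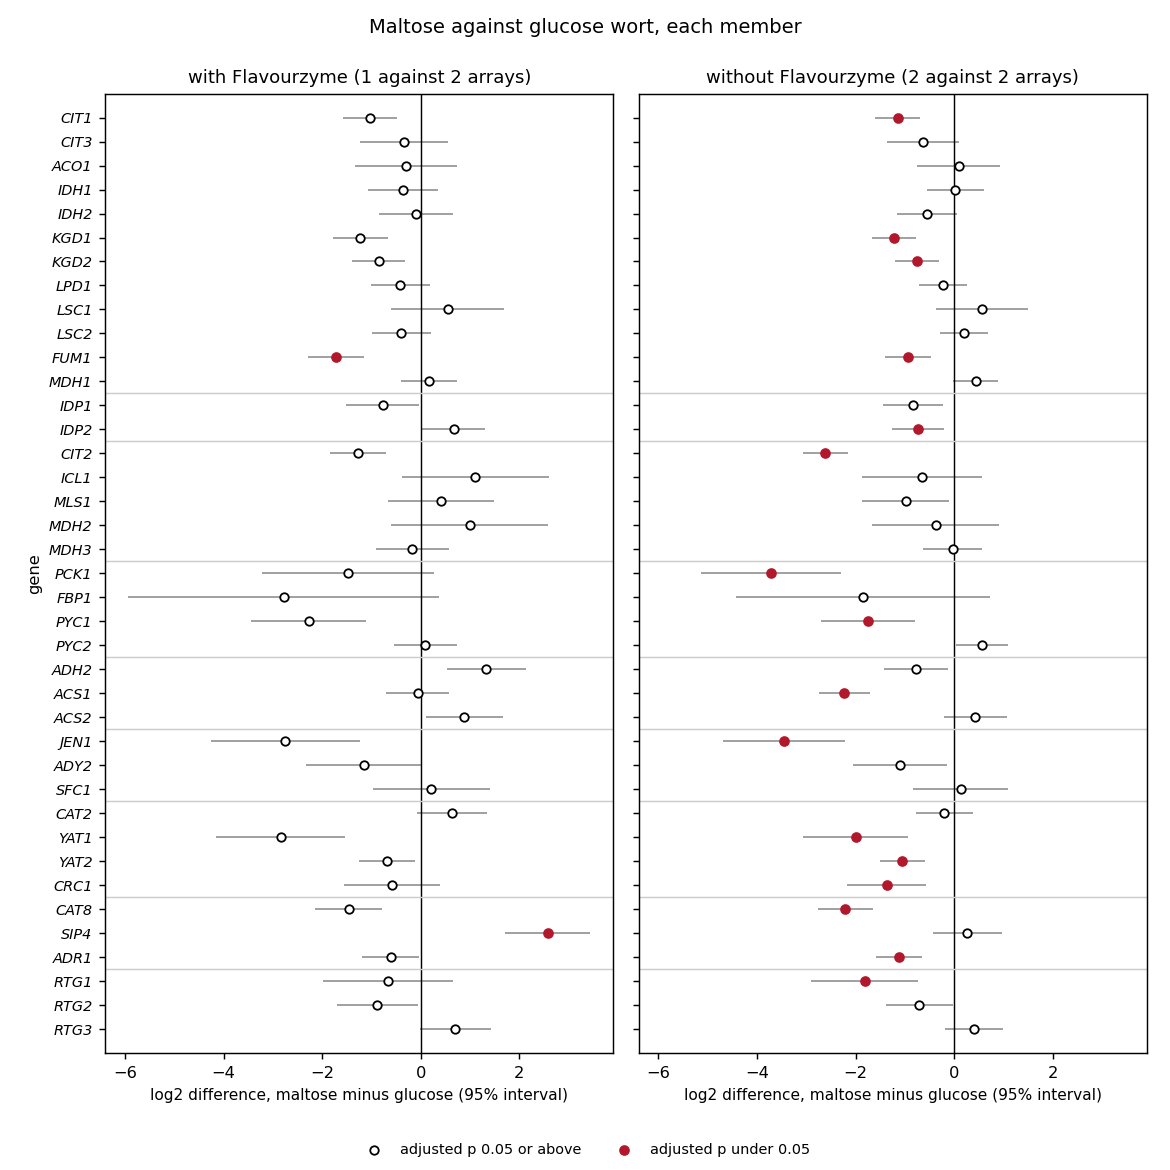
Log2 difference between maltose and glucose wort (maltose minus glucose) for each member, with Flavourzyme on the left and without it on the right, with 95% intervals from limma and filled points at an adjusted p under 0.05. On the right 16 points are filled, all left of 0, and on the left only FUM1 (-1.72) and SIP4 (2.58) are.

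In the TCA cycle, 1 of 12 enzymes, fumarase, was called for the wort effect, against 8.8% of all genes, and 4 of 12 fell in maltose wort without Flavourzyme, where 28.6% of all genes passed and 9.81% were lower. The signal of FUM1, which hydrates fumarate to malate, was 10.62 in maltose wort with Flavourzyme and 11.00 and 11.04 in the maltose control, against 12.45 and 12.24 in glucose wort with Flavourzyme and 12.02 and 11.90 in the glucose control. The maltose and glucose arrays did not overlap, and the wort effect was -1.33 (standard error 0.15, adjusted p = 0.00827 by limma). The difference was -1.72 with Flavourzyme (standard error 0.23, adjusted p = 0.0440) and -0.94 without it (standard error 0.19, adjusted p = 0.0202). Without an array of the series the wort effect of FUM1 lay between -1.38 and -0.94, and it was called only when glucose control replicate 2 was the array left out.

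CIT1, the mitochondrial citrate synthase that starts the cycle, had 11.88 in maltose wort with Flavourzyme and 11.83 and 11.84 in the maltose control, against 12.89 and 12.92 in glucose wort with Flavourzyme and 12.90 and 13.07 in the glucose control. The subunits KGD1 and KGD2 of the 2-oxoglutarate dehydrogenase complex showed the same split. KGD1 had 11.45 in maltose wort with Flavourzyme and 11.19 and 11.33 in the maltose control, against 12.65 and 12.69 in glucose wort with Flavourzyme and 12.55 and 12.42 in the glucose control. KGD2 had 11.44, then 11.39 and 11.44 in those maltose groups, against 12.29 and 12.31, then 12.22 and 12.12 in the glucose groups. Every maltose array was thus below every glucose array for all 3 genes. Their wort effects of -1.09, -1.23 and -0.80 passed the adjusted p (0.00991, 0.00867 and 0.0152) and not the fold threshold. Without Flavourzyme the differences were -1.15 for CIT1 (adjusted p = 0.0130), -1.23 for KGD1 (adjusted p = 0.0125) and -0.75 for KGD2 (adjusted p = 0.0304).

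The other 8 enzymes of the cycle did not pass the adjusted p in either of these comparisons. CIT3, a further citrate synthase, and LPD1, the dihydrolipoamide dehydrogenase shared with pyruvate dehydrogenase, had all maltose arrays below all glucose arrays, with wort effects of -0.48 and -0.32. Aconitase ACO1 (-0.10), the subunits IDH1 (-0.17) and IDH2 (-0.33) of the NAD-linked isocitrate dehydrogenase, the succinyl-CoA ligase subunits LSC1 (0.55) and LSC2 (-0.10) and mitochondrial malate dehydrogenase MDH1 (0.30) stood between -0.33 and 0.55. Signals of ACO1 were 13.13 and 12.14 in the glucose control, a wider gap than between its group means. The members of the cycle lower in maltose wort were thus CIT1, FUM1 and the subunits KGD1 and KGD2. Between citrate and 2-oxoglutarate, ACO1, IDH1 and IDH2 did not pass. Succinate dehydrogenase is not among the members and is counted with the further genes below.

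The NADP-linked isocitrate dehydrogenases make 2-oxoglutarate and NADPH, IDP1 in the mitochondria and IDP2 in the cytosol. IDP1 stood at 10.85 in maltose wort with Flavourzyme and 11.17 and 11.25 in the maltose control, against 11.53 and 11.71 in glucose wort with Flavourzyme and 11.77 and 12.32 in the glucose control, and its wort effect of -0.80 passed the adjusted p alone (0.0279). IDP2 had 10.29 in maltose wort with Flavourzyme and 9.23 and 9.26 in the maltose control, against 9.45 and 9.79 in glucose wort with Flavourzyme and 10.10 and 9.86 in the glucose control. The maltose Flavourzyme array was the highest of the 7 for IDP2 and the maltose controls were the lowest. Without Flavourzyme the IDP2 difference between the worts was -0.73 (standard error 0.21, adjusted p = 0.0499), with Flavourzyme the difference was 0.67 (adjusted p = 0.151), and the interaction of 1.40 did not pass (adjusted p = 0.117).

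Within the glyoxylate shunt CIT2 alone passed the test in any comparison. CIT2, the peroxisomal citrate synthase and a known target of the Rtg proteins, had 12.56 in maltose wort with Flavourzyme and 11.61 and 11.52 in the maltose control, against 13.83 and 13.82 in glucose wort with Flavourzyme and 14.07 and 14.28 in the glucose control. The 4 groups did not overlap with each other. The wort effect was -1.94 (standard error 0.15, adjusted p = 0.00458), with -1.27 under Flavourzyme (standard error 0.23, adjusted p = 0.0518) and -2.61 without it (standard error 0.19, adjusted p = 0.00501), a 6.11-fold lower signal in the maltose control than in the glucose control. Without an array the wort effect of CIT2 lay between -2.61 and -1.89, and the call was lost when a maltose control, either one, or glucose Flavourzyme replicate 2 was left out.

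The shunt's own enzymes, isocitrate lyase ICL1 and malate synthase MLS1, overlapped between the worts. ICL1 had 9.17 in maltose wort with Flavourzyme and 8.36 and 8.34 in the maltose control, against 7.91 and 8.21 in glucose wort with Flavourzyme and 9.78 and 8.23 in the glucose control. MLS1 had 10.72, then 10.22 and 10.13 in the maltose groups, against 10.18 and 10.45, then 11.67 and 10.66 in the glucose groups. Glucose control replicate 1 was the highest array for both. It was also the highest for cytosolic malate dehydrogenase MDH2, with 12.84 against 11.21 on the other glucose control. The wort effects were 0.23 for ICL1 (95% interval from limma -0.74 to 1.19), -0.29 for MLS1 (-0.98 to 0.40) and 0.31 for MDH2 (-0.72 to 1.33), so that differences of either sign are within these intervals. MDH3, the peroxisomal malate dehydrogenase, stood between 11.55 and 12.09 on all arrays.

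In gluconeogenesis, PCK1 fell in maltose wort and FBP1 did not pass. PCK1, which makes phosphoenolpyruvate from oxaloacetate, had 10.85 in maltose wort with Flavourzyme and 8.71 and 8.55 in the maltose control, against 12.40 and 12.26 in glucose wort with Flavourzyme and 11.42 and 13.28 in the glucose control. Its wort effect was -2.60 (standard error 0.46, adjusted p = 0.0153). The difference without Flavourzyme was -3.72 (standard error 0.58, adjusted p = 0.0127), a 13.2-fold lower signal in the maltose control than in the glucose control, and with Flavourzyme it was -1.48 (adjusted p = 0.207). The difference without Flavourzyme was -4.65 without glucose control replicate 1 and -2.79 without replicate 2. Without an array the wort effect of PCK1 lay between -3.72 and -2.13.

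FBP1 had 8.70 in maltose wort with Flavourzyme and 8.94 and 8.92 in the maltose control, against 11.41 and 11.54 in glucose wort with Flavourzyme and 9.03 and 12.53 in the glucose control. All maltose arrays were below all glucose arrays, yet glucose control replicate 1 lay close to the maltose arrays, and the glucose controls differed by 3.49, more than for any other member. The wort effect of -2.31 had a standard error of 0.82 and did not pass (adjusted p = 0.0744). Without glucose control replicate 1 it was -3.19 (adjusted p = 0.000104), and without replicate 2 it was -1.44 (adjusted p = 0.000801), both past the thresholds in fits that no longer held the spread between these controls.

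Of the 2 pyruvate carboxylases, which replenish oxaloacetate from pyruvate, PYC1 fell in maltose wort. PYC1 had 11.71 in maltose wort with Flavourzyme and 11.92 and 11.99 in the maltose control, against 14.01 and 13.96 in glucose wort with Flavourzyme and 13.12 and 14.29 in the glucose control. Its wort effect was -2.01 (standard error 0.31, adjusted p = 0.0115), 4.04-fold lower in maltose wort, and without Flavourzyme the difference was -1.75 (standard error 0.39, adjusted p = 0.0258). The PYC1 difference was -2.34 when glucose control replicate 1 was left out and -1.17 when replicate 2 was. PYC2 had 10.40, then 10.64 and 10.64 in the maltose groups, against 10.40 and 10.21, then 10.26 and 9.88 in the glucose groups, with a wort effect of 0.33 (adjusted p = 0.167). The difference between the effects of the paralogs was not tested.

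Among the genes that turn ethanol and acetate into acetyl-CoA, acetyl-CoA synthetase ACS1 was the sole member called for Flavourzyme within a wort. ACS1, the form induced on non-fermentable carbon in S. cerevisiae, had 12.32 in maltose wort with Flavourzyme and 10.05 and 10.07 in the maltose control, against 12.39 and 12.37 in glucose wort with Flavourzyme and 12.09 and 12.49 in the glucose control. The maltose controls stood apart below the other 5 arrays. Between the worts ACS1 differed by -2.23 without Flavourzyme (standard error 0.21, adjusted p = 0.00716), and with it the difference was -0.06 (95% interval -0.70 to 0.57, adjusted p = 0.883).

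In maltose wort ACS1 rose 4.77-fold with Flavourzyme (log2 difference 2.25, standard error 0.26, adjusted p = 0.0435), as the 1 member among 39 called higher there, against 1.99% of all genes called (0.905% higher, 1.08% lower). In glucose wort the Flavourzyme difference was 0.09 (adjusted p = 0.953), and the interaction of 2.17 did not pass (adjusted p = 0.0715). The ACS1 call rests on a single maltose Flavourzyme array, and it was lost without either maltose control, without either glucose Flavourzyme array, with the replicate numbers as a block and without moderation, while the value stayed between 2.24 and 2.27.

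ADH2, the alcohol dehydrogenase that oxidizes ethanol, had 9.94 in maltose wort with Flavourzyme and 8.17 and 8.19 in the maltose control, against 8.70 and 8.52 in glucose wort with Flavourzyme and 9.28 and 8.62 in the glucose control. The maltose Flavourzyme array was the highest and the maltose controls the lowest, as for IDP2, and the Flavourzyme difference in maltose wort was 1.76 (adjusted p = 0.0630). ACS2, the synthetase made during growth on glucose, had 11.28, then 10.80 and 10.86 in the maltose groups, against 10.32 and 10.47, then 10.72 and 10.10 in the glucose groups. All maltose arrays were above all glucose arrays for ACS2, and its wort effect of 0.65 missed the threshold (adjusted p = 0.0536).

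Of the carriers, JEN1 had the lowest wort effect of all members. JEN1, which imports lactate and pyruvate, had 9.75 in maltose wort with Flavourzyme and 8.67 and 8.51 in the maltose control, against 12.55 and 12.43 in glucose wort with Flavourzyme and 11.25 and 12.84 in the glucose control. Its wort effect was -3.10 (standard error 0.40, adjusted p = 0.00964), 8.57-fold lower in maltose wort, and without Flavourzyme the difference was -3.45 (standard error 0.50, adjusted p = 0.0123), which became -4.25 without glucose control replicate 1 and -2.66 without replicate 2. With Flavourzyme the difference was -2.75 (adjusted p = 0.0641), and without an array the wort effect lay between -3.50 and -2.70.

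The acetate transporter ADY2 had low signals, 5.93 in maltose wort with Flavourzyme and 5.46 and 5.04 in the maltose control, against 7.61 and 6.57 in glucose wort with Flavourzyme and 6.52 and 6.18 in the glucose control. Its wort effect of -1.13 passed the adjusted p alone (0.0378). SFC1, which exchanges succinate for fumarate across the inner mitochondrial membrane, stood between 4.90 and 5.80, near the level of background, and had a wort effect of 0.18.

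The carnitine shuttle carries acetyl units into the mitochondria. Of its 4 genes, 3 fell in maltose wort without Flavourzyme, where 28.6% of all genes passed and 9.81% were lower. YAT1, the carnitine acetyltransferase of the outer mitochondrial membrane, had 7.24 in maltose wort with Flavourzyme and 7.16 and 7.11 in the maltose control, against 10.43 and 9.73 in glucose wort with Flavourzyme and 8.56 and 9.72 in the glucose control. Its maltose arrays lay close together and all below the glucose arrays. The wort effect was -2.42 (standard error 0.34, adjusted p = 0.0106), between -2.71 and -2.00 without an array, and the difference was -2.00 without Flavourzyme (adjusted p = 0.0251), which became -2.58 without glucose control replicate 1 and -1.42 without replicate 2.

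YAT2, a further carnitine acetyltransferase, had 8.43, then 8.08 and 8.24 in the maltose groups, against 9.20 and 9.03, then 9.20 and 9.22 in the glucose groups. The carnitine carrier of the inner membrane, CRC1, had 11.20, then 9.98 and 10.09 in the maltose groups, against 11.87 and 11.69, then 10.96 and 11.85 in the glucose groups. YAT2 fell by 1.05 (adjusted p = 0.0160) and CRC1 by 1.37 (adjusted p = 0.0300) on the log2 scale without Flavourzyme. The maltose Flavourzyme array of CRC1 lay within the range of the glucose arrays. CAT2, the carnitine acetyltransferase of peroxisomes and mitochondria, stood between 11.77 and 12.56 on all arrays and did not pass (wort effect 0.22, adjusted p = 0.371).

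Of the 3 activators of these pathways, CAT8 was called lower in maltose wort and SIP4 higher. CAT8, a zinc cluster activator of gluconeogenesis genes, had 11.00 in maltose wort with Flavourzyme and 9.78 and 10.01 in the maltose control, against 12.28 and 12.62 in glucose wort with Flavourzyme and 11.97 and 12.23 in the glucose control. Its wort effect was -1.83 (standard error 0.18, adjusted p = 0.00769), and the difference without Flavourzyme was -2.21 (standard error 0.22, adjusted p = 0.00766). ADR1, the activator of ADH2 and of peroxisomal genes, had 9.39, then 8.45 and 8.27 in the maltose groups, against 10.01 and 9.99, then 9.40 and 9.56 in the glucose groups. It fell by 1.12 without Flavourzyme (standard error 0.19, adjusted p = 0.0147), and its wort effect of -0.87 passed the adjusted p alone (0.0148).

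SIP4, the activator that acts with Cat8 on the same promoter element, was the single member called higher in maltose wort. Its signal was 8.74 in maltose wort with Flavourzyme and 7.21 and 7.13 in the maltose control, against 5.93 and 6.40 in glucose wort with Flavourzyme and 7.20 and 6.60 in the glucose control. The maltose controls overlapped with the glucose controls, and the maltose Flavourzyme array stood above all others. The wort effect was 1.42 (standard error 0.23, adjusted p = 0.0125), with 2.58 under Flavourzyme (standard error 0.35, adjusted p = 0.0440) and 0.27 without it (adjusted p = 0.497). Its wort effect thus came mostly from the worts with Flavourzyme, of which maltose has 1 array, as the controls alone differed by 0.27. It was also not called after quantile normalization over S. cerevisiae probe sets alone or by the unmoderated analysis, and it was called only when glucose control replicate 1 was the array left out.

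Of the retrograde regulators, RTG1 fell in maltose wort without Flavourzyme. This gene, a helix-loop-helix activator that binds DNA together with Rtg3, had 7.93 in maltose wort with Flavourzyme and 7.27 and 7.24 in the maltose control, against 8.22 and 8.98 in glucose wort with Flavourzyme and 8.51 and 9.64 in the glucose control. Its difference without Flavourzyme was -1.82 (standard error 0.44, adjusted p = 0.0314), or -2.38 without glucose control replicate 1 and -1.25 without replicate 2, and the wort effect of -1.24 passed the adjusted p alone (0.0403). RTG2, the sensor that lets the pair enter the nucleus, had 10.01, then 9.99 and 9.90 in the maltose groups, against 10.90 and 10.89, then 10.30 and 11.01 in the glucose groups (wort effect -0.80, adjusted p = 0.0380). RTG3 went the other way, with all maltose arrays (9.53, then 9.27 and 9.23) above all glucose arrays (8.79 and 8.88, then 9.12 and 8.58), and did not pass (0.55, adjusted p = 0.0675).

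**Figure D3:**
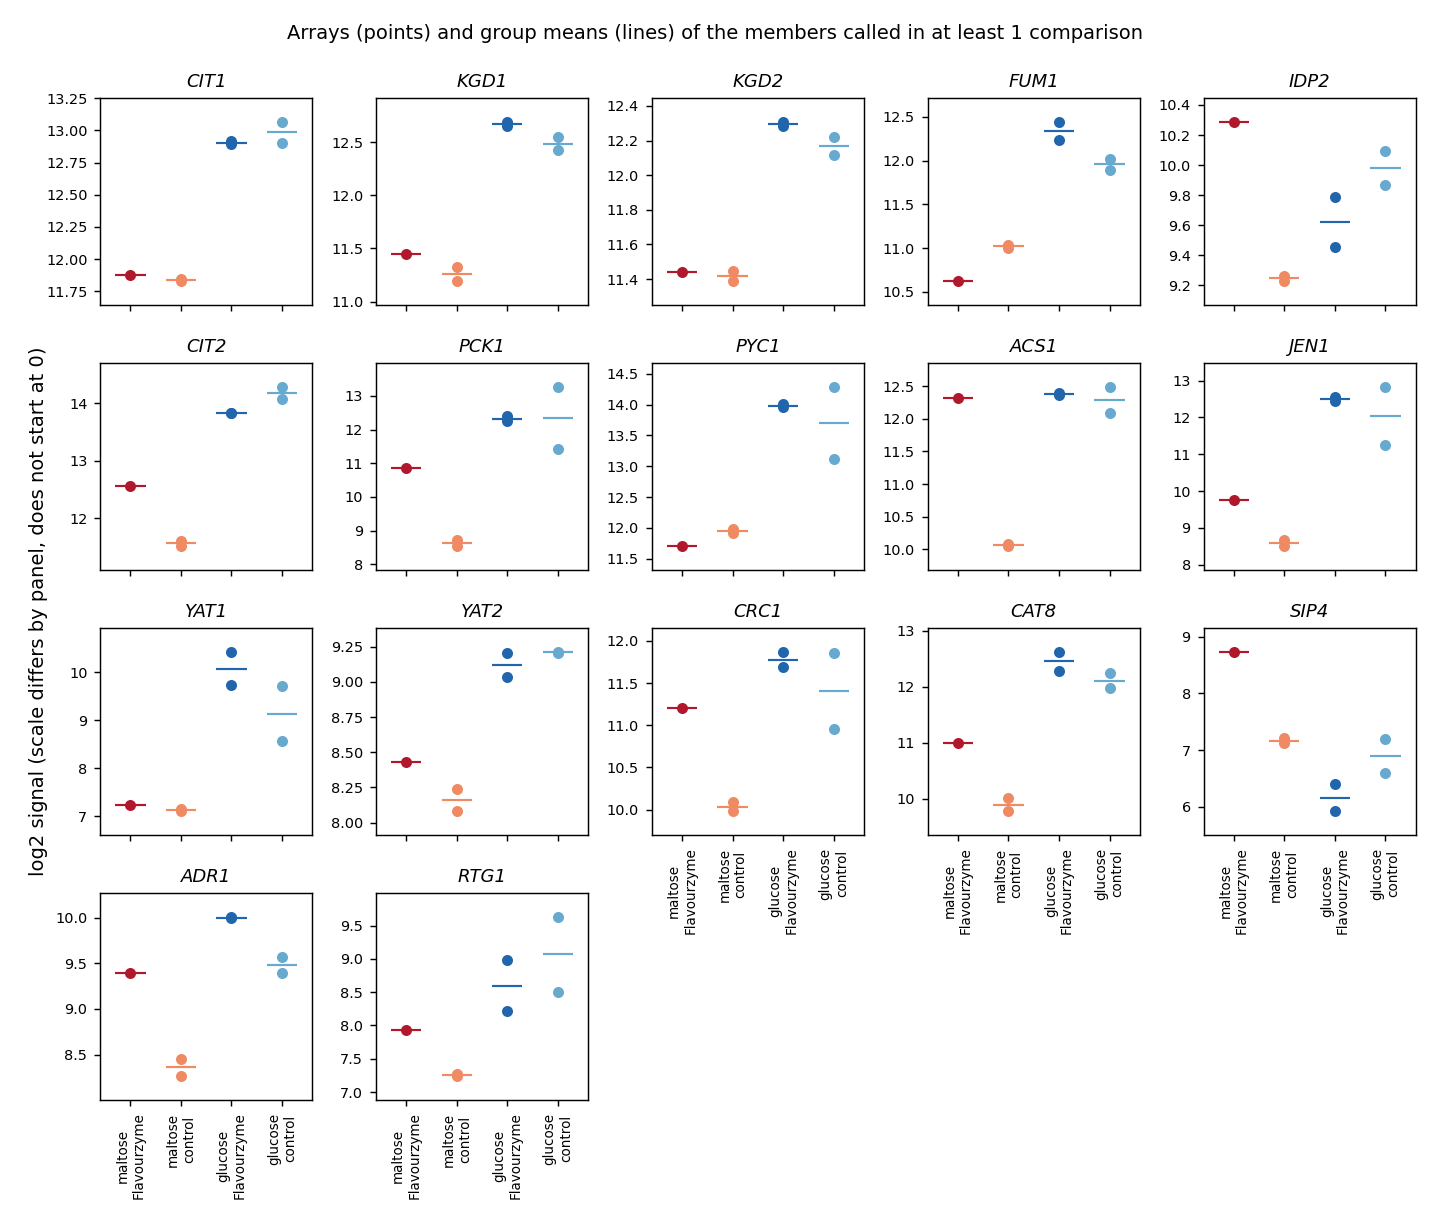
Log2 signal on each array (points) and the mean of each group (lines) for the 17 members called in at least 1 comparison, with maltose wort in red and glucose wort in blue. All maltose arrays lie below all glucose arrays in every panel except IDP2, ACS1, CRC1 and SIP4, where the worts overlap. The ACS1 level of the maltose Flavourzyme array is that of glucose wort.

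Flavourzyme went with few differences in these genes. Averaged over both worts, no member was called (0 of 39 by limma and 0 by the unmoderated 2-way analysis, with 0.0355% of all genes called). At an unadjusted p under 0.05 there were 5 members (12.8%), against 16% of all genes. All 5 members were higher, while of all 5635 genes 342 were higher and 559 lower. The 5 were ACS1 (1.17, adjusted p = 0.186), ADR1 (0.78, adjusted p = 0.196), CAT8 (0.72, adjusted p = 0.209), CRC1 (0.77, adjusted p = 0.256) and ADH2 (0.71, adjusted p = 0.236), all with positive values. In glucose wort no member passed either (0 of 39 by limma and 0 by the unmoderated analysis, 0% of all genes called), with 2 members (5.13%) and 6.97% of all genes at an unadjusted p under 0.05, and the member differences ran from -0.94 for ICL1 to 0.94 for YAT1. These glucose values depended on which control was used. PCK1 had 12.40 and 12.26 with Flavourzyme, which lay between its glucose controls at 11.42 and 13.28. FBP1 had 11.41 and 11.54 with Flavourzyme, between its glucose controls at 9.03 and 12.53. The sign for PCK1 and FBP1 thus turned with the control left out.

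In maltose wort 25 of 39 members had positive Flavourzyme differences, against 2657 of all 5635 genes. The median difference was 0.27 over the members and -0.04 over all genes tested. Beside ACS1, the largest were PCK1 with 2.22 (adjusted p = 0.144), ADH2 with 1.76 and SIP4 with 1.57 (adjusted p = 0.0807). CAT8 and ADR1 had 1.10 and 1.03, and IDP2 and CIT2 had 1.04 and 0.99, with adjusted p-values between 0.0823 and 0.0961. The TCA cycle enzymes stood between -0.56 (LSC2) and 0.32 (IDH2), with a median of -0.17, and none passed. After quantile normalization over S. cerevisiae probe sets alone, IDP2, ACS1, ADH2, CAT8, SIP4 and ADR1 were called higher in this comparison. The interaction was then called for ACS1, ADH2 and SIP4. Calls over all genes tested rose as well, from 112 to 423 in this comparison and from 2 to 167 for the interaction.

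**Figure D4:**
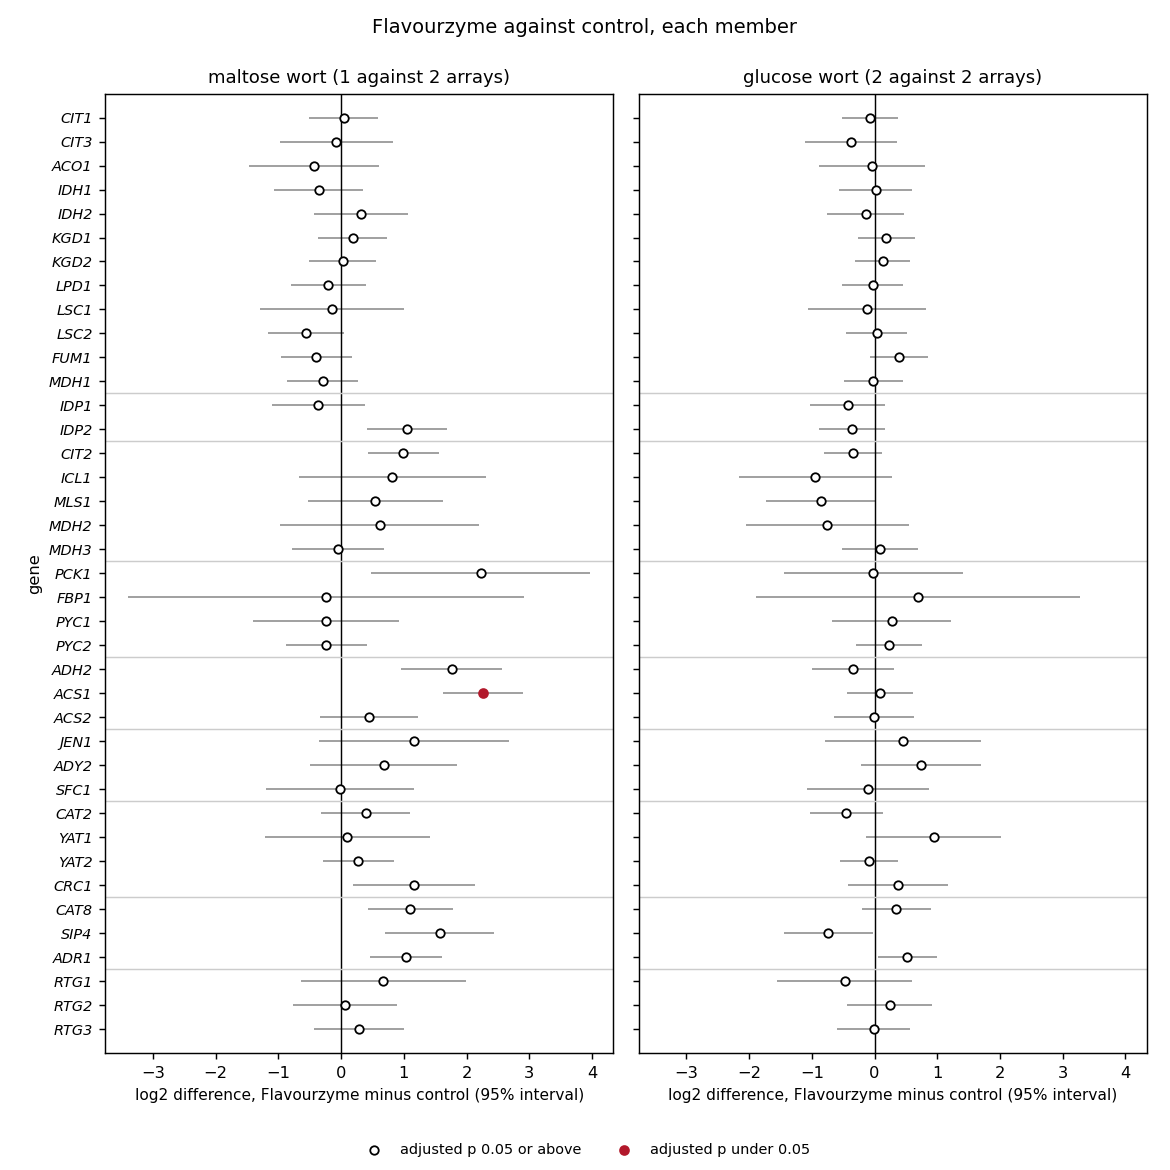
Log2 difference between Flavourzyme and control for each member, in maltose wort on the left and glucose wort on the right, with 95% intervals from limma and filled points at an adjusted p under 0.05. Only ACS1 in maltose wort (2.25) is filled, and the widest intervals are those of FBP1.

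Further genes of the same pathways were counted in 5 lists of 47 measured genes. For the wort effect, 3 of 12 genes of acetate formation and use, 3 of 15 regulators and 1 of 8 mitochondrial carboxylate carriers were called lower (3.57% of all genes), none was called higher (5.24% of all genes), and no gene was called among 6 of succinate dehydrogenase and further cycle enzymes or 6 of pyruvate dehydrogenase. At the adjusted p alone, 3 of the 6 genes of succinate dehydrogenase and further cycle enzymes were lower and 1 was higher. Of the 6 pyruvate dehydrogenase genes, 1 was higher and 0 were lower. Over all genes, 11.3% were lower and 23% higher at the adjusted p alone. The list medians of -0.34, -0.41, -0.31, -0.48 and 0.14 stand beside 0.26 for all genes. ATO2 and ATO3, membrane proteins related to ADY2, fell by 3.16 (adjusted p = 0.00827) and 1.48 (adjusted p = 0.0122) on the log2 scale, and the mitochondrial CoA transferase ACH1 by 2.12 (adjusted p = 0.00643). The pyruvate carrier subunit MPC3 fell by 2.05 (adjusted p = 0.00381). Among the regulators, HAP4, the activating subunit for respiratory genes, fell by 2.10 (adjusted p = 0.00827) and the glucose repressor MIG1 by 2.46 (adjusted p = 0.0102). DLD3, a D-lactate dehydrogenase and target of the Rtg proteins, fell by 3.04 for the wort effect (adjusted p = 0.00643). HAP4 was also the single gene of the 47 called for Flavourzyme in maltose wort (2.11, adjusted p = 0.0483 by limma). There 0.905% of all genes were called higher and 1.08% lower, and maltose wort with Flavourzyme has 1 array.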

How the data were processed

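RNA from 7 stationary phase samples was hybridised to Affymetrix Yeast Genome 2.0 arrays, whose probe sets cover S. cerevisiae and S. pombe. Scans were read in Affymetrix Microarray Suite. The deposited log2 values come from RMA in the affy package, run by the authors (background correction, quantile normalization over all probe sets, median polish). The version of the affy package is not given in the sources here. The values were used as deposited. Precision is limited by there being 7 arrays.

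Of 10928 probe sets, 5685 name 1 S. cerevisiae gene. Where a gene had several (48 genes, no member), the brightest on average was used. This left 5635 genes, unfiltered, for limma 3.58.1 (R 4.3.3) with 4 group means and 3 residual degrees of freedom (2.78 prior). The spread of the maltose Flavourzyme group, 1 array, is taken from the other groups. Adjusted p-values are Benjamini-Hochberg values over all genes tested, two-sided. The wort and Flavourzyme effects also needed an absolute log2 difference over 1.301, a threshold of the study's methods that equals −log10 of 0.05 and may not have been intended for fold changes, and the other 5 comparisons did not. The script was tested on simulated data.

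The members and lists were chosen with earlier results of these data known. Values are given for each array for members called in at least 1 comparison and for those described beside them. The alternatives were normalization over S. cerevisiae probe sets, a filter at the S. pombe level, no moderation, a replicate block, the mean of a gene's probe sets, the other fold rule and leaving out each array. Replicate numbers were not taken as pairs. No sequences are shown.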

Additional observations from a re-analysis of the deposited data

How the results depend on the processing

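Members called are counts out of 39. For the wort effect, 8 were called, 9 after quantile normalization over S. cerevisiae probe sets alone (7 of them shared), 3 without moderation and 19 without the fold threshold. For maltose against glucose wort without Flavourzyme, 16 became 9 without moderation and 9 with the fold threshold. For maltose against glucose wort with Flavourzyme, 2 became 7 after that normalization and 0 without moderation. For Flavourzyme in maltose wort, 1 became 6 after that normalization and 0 without moderation. The interaction went to 3 after that normalization. Over all genes tested, that normalization moved these last 3 comparisons from 164, 112 and 2 calls to 353, 423 and 167. For the wort effect, calls over all genes went from 496 to 390. Leaving out each array in turn gave 0 to 9 for the wort effect, 0 to 29 and 0 to 26 for the wort comparison without and with Flavourzyme, 0 to 1 for the Flavourzyme effect, 0 to 15 and 0 to 13 for Flavourzyme in glucose and in maltose wort, and 0 to 16 for the interaction. Counts over 9 came from fits without 1 of the glucose controls, whose duplicates differed most, except for the 16 of the wort comparison without Flavourzyme that passed without the maltose Flavourzyme array. Calls over all genes tested also rose in the fits without 1 glucose control, except for the wort effect without replicate 2. They were few or none in the fits without 1 maltose control. These ranges thus do not set the members apart from other genes. The filter at the S. pombe level and the mean of a gene's probe sets moved no count by over 1.5 times. Without the maltose Flavourzyme array, the interaction, the wort comparison with Flavourzyme and Flavourzyme in maltose wort could not be fitted. The wort effect then became the maltose control minus the glucose control, and the Flavourzyme effect that of glucose wort.

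Same-numbered arrays deviated from their group means with correlations of 0.102, 0.182 and 0.00736 over the 3 pairs of groups with duplicates, so the numbers were not taken as pairs. With a replicate block, 8 were called for the wort effect and 15 without Flavourzyme, 0 for the wort comparison with Flavourzyme and 0 for Flavourzyme in maltose wort. No called member changed sign under any alternative in the comparison in which it was called. The lowest signals, those of SFC1 and ADY2, lie nearest the level of background.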

Other observations

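The glucose controls differed by more than 1 on the log2 scale for 10 of 39 members (25.6%), against 21.5% of all genes tested. Of these, 4 were higher in replicate 1, namely MDH2 (1.63), ICL1 (1.55), LSC1 (1.14) and MLS1 (1.01), and 6 were higher in replicate 2, namely FBP1 (3.49), PCK1 (1.86), JEN1 (1.59), PYC1 (1.17), YAT1 (1.16) and RTG1 (1.13). Over all genes the larger number, 873, was higher in replicate 1, against 339 in replicate 2. Across the 39 members, replicate 1 minus replicate 2 had a Pearson correlation of -0.03 and a Spearman correlation of 0.03 with Flavourzyme minus control in maltose wort, which shares no array with it. These genes were picked after their values were seen, and members are not independent replicates.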
